A study of Mus musculus with 8 samples.

Results

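The 38 genes described here, called the members, were listed for the programme driven by the transcription factor ATF4 and for serine, one-carbon and amino acid transport. Whether each member is a target of ATF4 was not tested. The members were taken by symbol from a written list and matched to the table's Ensembl identifiers through the GENCODE M21 annotation. All 38 were found among the 26589 genes of the table. The list holds 7 transcription factors, 3 feedback and stress effectors, 3 enzymes of serine synthesis, 6 folate enzymes, 2 transsulfuration enzymes, 6 other amino acid and carbon enzymes and 11 amino acid transporters. Messenger RNA came from 8 bulk libraries of mouse splenic B cells, 4 of cells sorted as IL-10+ and 4 of cells sorted as IL-10-. Both groups came from IL-10-eGFP Tiger mice, named IL-10-GFP Tiger mice in the strain label, in which a green fluorescent reporter marks cells that transcribe Il10. Purified B cells received lipopolysaccharide at 3 µg/ml for 48 h in both groups before the sort. A treatment label reads untreated for every library and stands against this protocol, which was followed here. The labels give no age, number of mice or meaning for the replicate numbers 1 to 4, so a p-value here speaks only of the variation among these 8 libraries, part of which may be technical.

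ATF4 is a basic leucine zipper protein whose messenger RNA is translated more when the initiation factor eIF2 is phosphorylated. Kinases that sense endoplasmic reticulum stress, amino acid shortage, double-stranded RNA or lack of heme carry out that step, which is known as the integrated stress response. With C/EBP family partners ATF4 binds composite C/EBP-ATF response elements and drives genes that make, import and charge amino acids. B cells stimulated with lipopolysaccharide grow, divide and turn to antibody secretion, which all draw on amino acids, serine-derived one-carbon units and nucleotides.

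Promoters of the members are shown first because the core of the C/EBP-ATF response element was found in many of them. The RefSeq promoter table of build GRCm38.p6 holds the 250 bases before and the first 50 bases after a gene start, and it had an entry for 33 of the 38 members. The letters TGATGNAA, or TTNCATCA on the other strand, with N standing for any base, matched exactly in 12 of these 33 members, against 4.51% of the 27025 genes in the table. Some genes have several promoter entries. By entry, 13 of 47 matched for the members, against 3.97% of all 32851. The list was written around the ATF4 programme, so a share above that of all genes is not independent of how the members were chosen. The letters TGACGTCA, the cAMP response element, which reads the same on both strands, matched in 0 of the 33 members and in 2.03% of all genes. The stretches around the matches read as follows on the strand of the gene, 5′ to 3′, with the matching letters in capitals. Stretches are shorter where a longer one would meet an annotated exon or the start site, and the 2 matches of Slc7a7 are shown separately.
Slc7a11: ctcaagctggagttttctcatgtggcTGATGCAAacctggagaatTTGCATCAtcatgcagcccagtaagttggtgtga
Slc7a7: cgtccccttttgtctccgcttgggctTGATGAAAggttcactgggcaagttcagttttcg
Slc7a7: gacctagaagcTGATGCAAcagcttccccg
Slc1a4: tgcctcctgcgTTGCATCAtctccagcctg
Asns: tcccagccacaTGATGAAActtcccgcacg
Pycr1: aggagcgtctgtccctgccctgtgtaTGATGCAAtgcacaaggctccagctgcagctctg
Pck2: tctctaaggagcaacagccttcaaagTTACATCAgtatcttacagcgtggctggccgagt
Chac1: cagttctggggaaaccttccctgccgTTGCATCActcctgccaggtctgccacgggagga
Trib3: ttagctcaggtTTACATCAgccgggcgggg
Vldlr: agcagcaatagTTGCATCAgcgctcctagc
Atf3: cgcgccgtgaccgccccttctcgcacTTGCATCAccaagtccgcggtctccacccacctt
Jdp2: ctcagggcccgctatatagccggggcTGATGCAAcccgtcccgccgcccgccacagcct
Nupr1: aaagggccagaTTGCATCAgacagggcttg

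In GRCm38.p6 these stretches lie, in the same order, on the reverse strand at chr3:50443627-50443705 (Slc7a11), chr14:54418052-54418111 and chr14:54417927-54417956 (Slc7a7), chr11:20332699-20332728 (Slc1a4), chr6:7693214-7693243 (Asns) and chr11:120643818-120643877 (Pycr1). Pck2 follows on the forward strand at chr14:55540137-55540196, Chac1 on the forward strand at chr2:119351023-119351082 and Trib3 on the reverse strand at chr2:152344028-152344057. The last 4 are Vldlr (forward, chr19:27216809-27216838), Atf3 (reverse, chr1:191183410-191183469), Jdp2 (forward, chr12:85599357-85599415) and Nupr1 (reverse, chr7:126625562-126625591). Slc7a11, the cystine importer subunit xCT, had 2 matches in opposite orientation, whose first bases lie at positions -66 and -47 from the gene start. Counted from the RefSeq start, the match of Trib3 begins at position 15, and the other matches begin between positions -200 and -1. Those of Slc7a7 at -1 and of Slc1a4 at -4 run across that start. GENCODE M21, used for the gene positions below, sets some starts elsewhere. There the match of Trib3 lies before the gene, and those of Asns, Vldlr, Atf3, Jdp2 and Nupr1 lie within the gene span. A match is a description of the letters and says nothing on whether ATF4 was bound there in these cells.

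Recovered library totals lay between 27380398 and 29968285 reads, so that for 1 kb of exon a single read equals 0.0334 to 0.0365 FPKM (reads scaled by gene length and library total). Il10, on which the cells were sorted, did not overlap between the groups in the labelled direction (36.9 ± 5.32 against 3.17 ± 1.48 FPKM, SD, n = 4). The 8 B cell markers summed to 1315 to 1678 FPKM in IL-10+ and 1529 to 2101 FPKM in IL-10- libraries. In the fits described below 4 of them were lower and 0 higher, or 7 and 1 with the replicate numbers as a block (median log2 change -0.51). The 8 plasma cell markers summed to 1363 to 1385 FPKM in IL-10+ and 317 to 447 FPKM in IL-10- libraries, and 7 of 8 passed as higher in both fits. Of all tested genes 10.6% were higher and 9.18% lower, or 20.4% and 33.3% with the block. The part of these marker shifts in the results on the members was not tested, and in bulk RNA more cells of a kind and more RNA per cell cannot be told apart. T cell markers summed to at most 2.38 FPKM, NK cell markers to at most 0.592, neutrophil markers to at most 1.36 and erythroid markers to at most 3.01 FPKM in any library. The macrophage and monocyte list reached 11.4 FPKM and the dendritic cell list 15.1 FPKM, with 6 of 7 and 5 of 6 genes under 1 FPKM in all libraries. The exceptions were Cd68 and Flt3. No marker found in the table was at 0 in all 8 libraries.

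Groups were compared with limma on log2(FPKM + 1) in 11329 genes that reached 1 FPKM in 4 or more libraries, and calls required an adjusted p (Benjamini-Hochberg) under 0.05. Of the members 36 of 38 were tested, and Slc7a11 and Cbs fell under that limit. Without regard to the replicate numbers, 3 of the 36 were higher in IL-10+ cells and 0 were lower. The 3 make up 8.33%, against 10.6% of all tested genes called higher and 9.18% called lower, so this count is near the background. Libraries with the same number deviated together, and a second limma fit, called the blocked fit below, compared each IL-10+ library with the IL-10- library of its number. There 23 members (63.9%) were higher and 4 (11.1%) were lower, against 20.4% and 33.3% of all tested genes, or 53.7% in either direction. The median log2 change of the 36 was 0.30, and that of all tested genes was -0.06. Within the numbers, 24 members were higher in IL-10+ cells in 4 of 4 (24.3% of all tested genes), 4 were lower in 4 of 4 (40.4% of all tested genes) and 8 were mixed. Fold values below are ratios of the group means in FPKM, and log2 changes are on the scale of FPKM + 1, which understates changes of low genes.

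**Figure D1:**
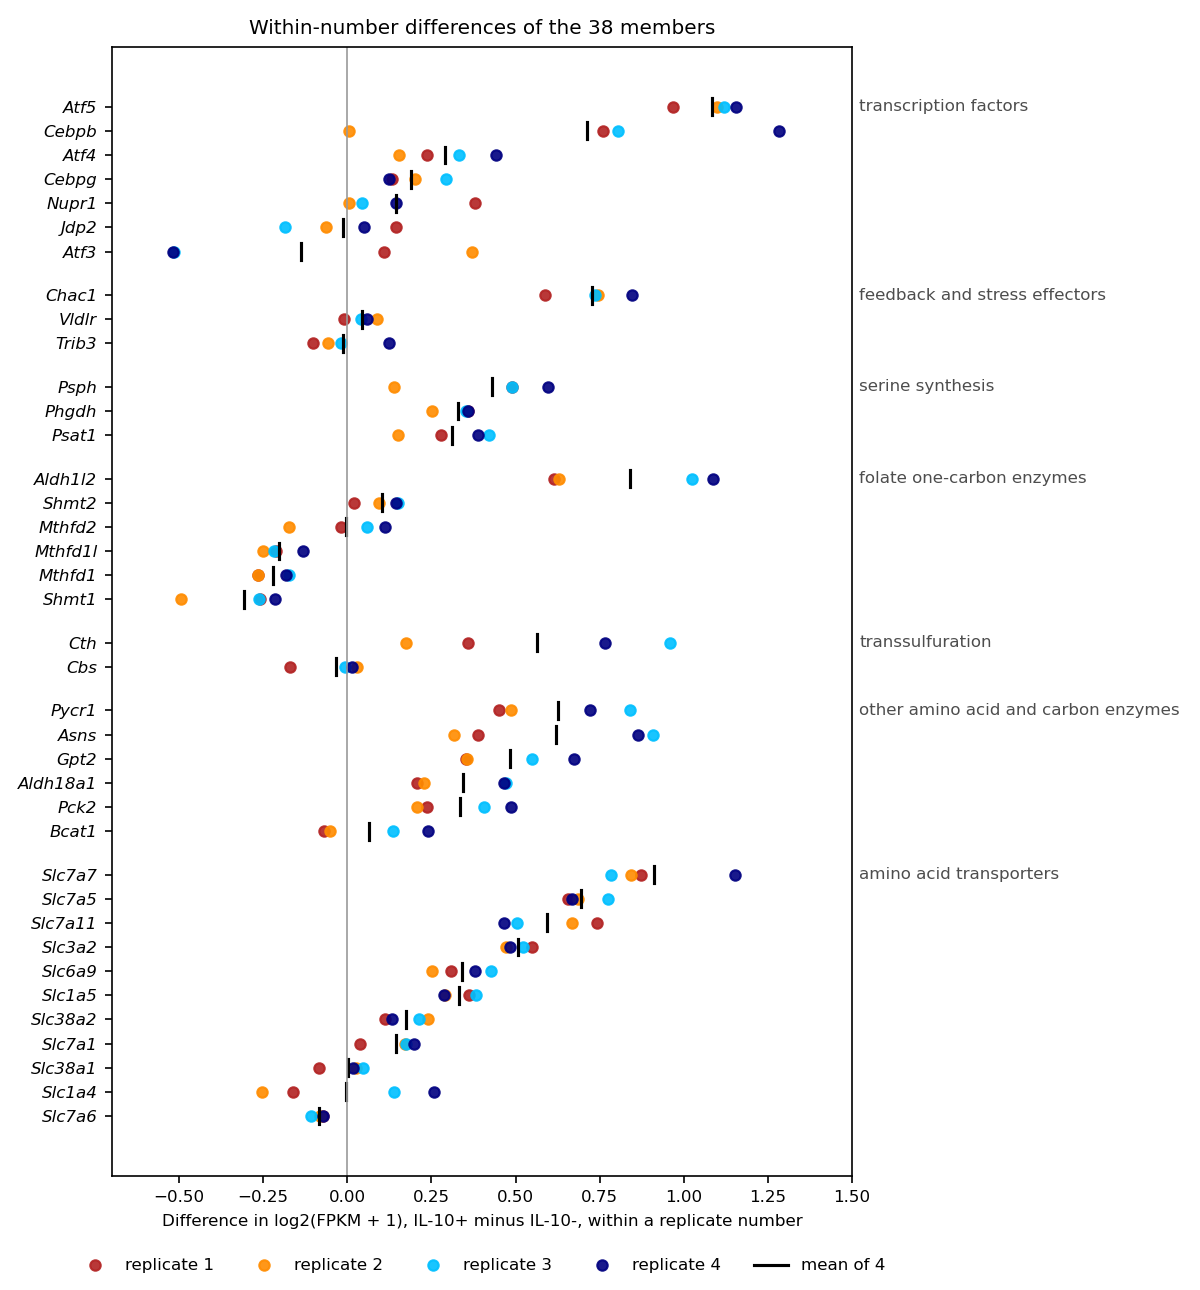
Differences in log2(FPKM + 1) between the IL-10+ and the IL-10- library of each replicate number for the 38 members, grouped by role. Points are the 4 replicate numbers, black bars their mean and the vertical line no difference. The 3 enzymes of serine synthesis lie to the right of the line in all 4 numbers, and Shmt1, Mthfd1, Mthfd1l and Slc7a6 lie to its left in all 4.

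Amino acid transporters held all 3 members that were called without the block. These were 3 of the 10 tested, against 10.6% of all tested genes called higher. In the blocked fit 7 of the 10 were higher and 1 was lower, against 20.4% and 33.3%. Slc7a5 encodes LAT1, the importer of leucine and other large neutral amino acids (chromosome 8, 121881150 to 121907694 of GRCm38). It stood at 316, 316, 239 and 209 FPKM in IL-10+ replicates 1 to 4 and at 200.4, 196, 139 and 131 FPKM in IL-10- replicates 1 to 4. The groups did not overlap, and in both of them replicates 1 and 2 were above 3 and 4. Slc7a5 was 1.62-fold higher in IL-10+ cells (log2 change 0.70, SE 0.190, limma adjusted p = 0.0343). Its partner Slc3a2, the heavy chain CD98 that LAT1, y+LAT1 and xCT need at the membrane, stood at 185, 186, 114 and 104 FPKM in IL-10+ and at 126, 134, 79.2 and 74.1 FPKM in IL-10- replicates. IL-10+ libraries of numbers 3 and 4 lay below IL-10- libraries of numbers 1 and 2, so the groups overlapped. Slc3a2 was 1.43-fold apart (adjusted p = 0.227) and was called in the blocked fit (adjusted p = 0.000112), with differences between 0.47 and 0.55 on the log2 scale in the 4 numbers.

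Slc7a7, the light chain y+LAT1 of a cationic amino acid exchanger (chromosome 14, 54369442 to 54417780), stood at 13.1, 10.6, 7.41 and 7.79 FPKM in IL-10+ and at 6.71, 5.48, 3.88 and 2.96 FPKM in IL-10- replicates. The lowest IL-10+ value was above the highest IL-10- value, and the ratio of the means was 2.05 (log2 change 0.91, SE 0.237, adjusted p = 0.0275). Its exons share positions with the antisense gene Oxa1l, whose log2 change was -0.26 (adjusted p = 0.0975, blocked adjusted p = 0.00116). Slc1a5, the glutamine and neutral amino acid transporter ASCT2 (chromosome 7, 16781340 to 16798274), stood at 134, 124, 117 and 115 FPKM in IL-10+ and at 104, 101, 89.7 and 94.3 FPKM in IL-10- replicates. Its 2 groups did not overlap, and it had the narrowest range between replicate numbers of the 36 tested members. Slc1a5 was 1.26-fold higher (log2 change 0.33, SE 0.0762, adjusted p = 0.0162). Leaving out single libraries ended the call of Slc7a5 in 5 of 8 fits (IL-10+ replicate 1, 2 or 3, or IL-10- replicate 3 or 4, adjusted p up to 0.0940). That of Slc7a7 ended in 4 (IL-10+ replicate 1 or 2, or IL-10- replicate 3 or 4, adjusted p up to 0.0759), and that of Slc1a5 in 1 (IL-10+ replicate 2, just past the threshold). Leaving out both libraries of a number ended the calls of Slc7a5 in 4 of 4 fits, of Slc7a7 in 3 (all but number 1) and of Slc1a5 in 3 (all but number 1), with adjusted p up to 0.133, 0.117 and 0.0907. Without a filter on low values Slc7a5 and Slc7a7 did not pass (adjusted p = 0.0853 and 0.0716). In the blocked fit the adjusted p of Slc7a5, Slc7a7 and Slc1a5 were 8.80e-05, 0.000250 and 0.000438.

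Slc7a11, the cystine importer xCT, had the largest fold of all members, but at levels too low for the filter. It stood at 0.960, 0.992, 0.515 and 0.559 FPKM in IL-10+ and at 0.172, 0.254, 0.0689 and 0.129 FPKM in IL-10- replicates. These values come from 207 to 386 recovered reads in IL-10+ and 27 to 101 in IL-10- libraries, and the groups did not overlap. The means were 0.757 ± 0.254 and 0.156 ± 0.0780 FPKM (SD, n = 4), 4.84-fold apart. With no filter on low values limma gave it a log2 change of 0.59 on the scale of FPKM + 1, with SE 0.108 and adjusted p = 0.0145.

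Slc3a2 was 1 of 4 transporters that were higher only in the blocked fit, and the other three follow. Slc6a9, the glycine transporter GLYT1, stood at 10.0, 8.27, 2.49 and 2.47 FPKM in IL-10+ and at 7.90, 6.79, 1.60 and 1.67 FPKM in IL-10- replicates. Numbers 1 and 2 were several times above 3 and 4, while within each number the IL-10+ library was higher (blocked adjusted p = 0.00190). Slc38a2, the amino acid starvation-inducible glutamine and alanine transporter SNAT2, stood at 102, 110, 74.6 and 72.8 FPKM in IL-10+ and at 94.4, 92.6, 64.1 and 66.2 FPKM in IL-10- replicates (blocked adjusted p = 0.00632). Slc7a1, the arginine and lysine importer CAT1, stood at 60.7, 62.9, 42.6 and 42.9 FPKM against 59.2, 55.7, 37.6 and 37.2 FPKM (blocked adjusted p = 0.0173). All 3 overlapped between the groups, and the call of Slc7a1 ended when number 2, 3 or 4 was left out (blocked adjusted p up to 0.0703).

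Slc7a6, the light chain y+LAT2, went the other way from its relative Slc7a7. It stood at 15.9, 16.8, 17.4 and 18.7 FPKM in IL-10+ and at 16.8, 17.8, 18.8 and 19.7 FPKM in IL-10- replicates, lower in 4 of 4 numbers by 0.07 to 0.11 on the log2 scale (blocked adjusted p = 0.0386). That call ended in both blocked fits with another scaling and in each of the 4 blocked fits that left out a number. Slc38a1, the glutamine transporter SNAT1, had means of 49.4 ± 5.14 and 49.4 ± 6.24 FPKM, and Slc1a4, the serine and alanine transporter ASCT1, of 19.4 ± 7.31 and 20.6 ± 10.8 FPKM (SD, n = 4). Neither passed in any fit, with differences of -0.08 to 0.05 and of -0.25 to 0.26 in the 4 numbers. The blocked 95% interval of the log2 change was -0.08 to 0.08 for Slc38a1 and -0.23 to 0.22 for Slc1a4.

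**Figure D2:**
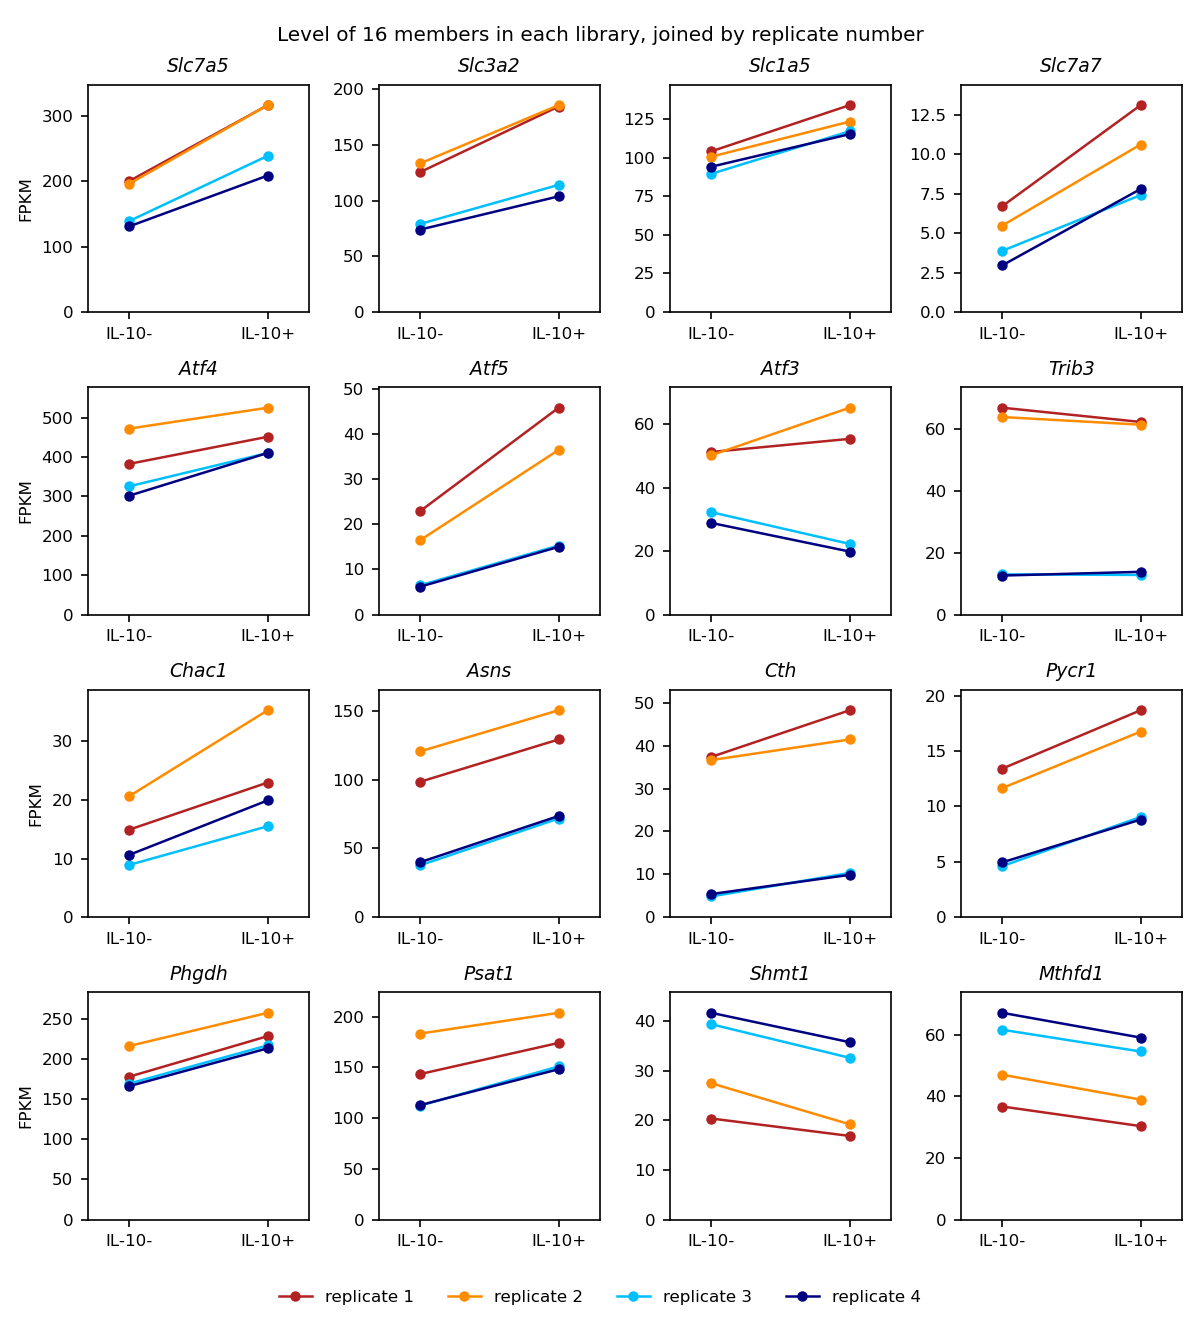
Level in FPKM of 16 members in each library, with IL-10- on the left and IL-10+ on the right of each panel, axes from 0, and lines joining libraries of the same replicate number. For Asns, Cth, Trib3 and Atf5 the lines of numbers 1 and 2 (red and orange) lie far above those of 3 and 4 (light and dark blue), while Shmt1 and Mthfd1 show the opposite order.

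The 7 transcription factors gave 0 calls without the block (0 of 7 at adjusted p under 0.05) and 4 in the blocked fit, against 19.7% and 53.7% of all tested genes. Atf4 itself (chromosome 15, 80255184 to 80257541) was abundant, at 451, 525, 410.2 and 410.4 FPKM in IL-10+ and at 383, 472, 326 and 302 FPKM in IL-10- replicates. In 4 of 4 numbers the IL-10+ library had more of it, and the groups overlapped. The log2 change was 0.29 (95% interval -0.04 to 0.63, adjusted p = 0.211), and in the blocked fit the interval was 0.16 to 0.42 (adjusted p = 0.00572). Since ATF4 is set largely by translation, its transcript level does not give the level of the protein.

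Atf5, a related factor also controlled by translation, had the largest log2 change among the tested members. It stood at 45.9, 36.5, 15.3 and 15.0 FPKM in IL-10+ and at 23.0, 16.5, 6.51 and 6.19 FPKM in IL-10- replicates. IL-10+ libraries were 2.16-fold higher in the mean, yet those of numbers 3 and 4 lay below the IL-10- libraries of numbers 1 and 2. The log2 change of 1.09 thus had adjusted p = 0.173 without the block and 6.20e-05 with it, and its 4 differences were 0.97 to 1.16. Exons of Atf5 share positions with the antisense genes Nup62 and Il4i1, which stood at 74.1 against 85.3 FPKM and at 0.0416 against 0.0386 FPKM in the mean. Nup62 was not called without the block (adjusted p = 0.120) and was lower in the blocked fit (adjusted p = 0.00379).

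Cebpb, which encodes the partner C/EBPβ, stood at 6.85, 10.1, 7.65 and 5.54 FPKM in IL-10+ and at 3.63, 10.1, 3.94 and 1.69 FPKM in IL-10- replicates. In number 2 its 2 libraries were level, and in the others IL-10+ was higher by 0.76 to 1.28 on the log2 scale (blocked adjusted p = 0.0263). That call ended when number 1, 3 or 4 was left out (blocked adjusted p = 0.0732, 0.0810 and 0.0711). Exons of Cebpb share positions with the antisense gene Tmem189, which was more abundant and was itself higher in IL-10+ cells (18.1 against 12.2 FPKM in the mean, log2 change 0.54, adjusted p = 0.00459, blocked adjusted p = 0.000163). Whether reads of the pair were told apart is not known, and the part of Tmem189 in the difference of Cebpb was not tested. Without the block, Cebpb passed when IL-10- replicate 2 was left out (adjusted p = 0.0270). Cebpg, a C/EBP protein that lacks an activation domain and pairs with ATF4, stood at 17.9, 17.0, 11.5 and 11.8 FPKM in IL-10+ and at 16.3, 14.7, 9.21 and 10.8 FPKM in IL-10- replicates (blocked adjusted p = 0.0101).

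Atf3, a stress-induced factor that ATF4 activates, was the only tested member whose differences in numbers 1 and 2 were both above those in 3 and 4. It stood at 55.4, 65.3, 22.3 and 19.9 FPKM in IL-10+ and at 51.3, 50.3, 32.3 and 28.9 FPKM in IL-10- replicates. The IL-10+ library was thus higher in numbers 1 and 2 and lower in 3 and 4, with differences of 0.11, 0.37, -0.52 and -0.52, and no fit called it (blocked adjusted p = 0.519). Jdp2, a repressor of the same family, had means of 2.75 ± 1.96 and 2.73 ± 1.87 FPKM. Nupr1, a small stress-induced chromatin protein, had 1.28 ± 1.14 and 1.03 ± 0.968 FPKM (SD, n = 4), from as few as 12 reads in a library. For Jdp2 and Nupr1 numbers 1 and 2 were several times above 3 and 4, differences within the numbers were -0.18 to 0.15 and 0.01 to 0.38, and the blocked adjusted p were 0.888 and 0.214.

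The feedback and stress effectors parted from each other. Chac1, which degrades glutathione, stood at 23.0, 35.3, 15.5 and 19.9 FPKM in IL-10+ and at 14.9, 20.7, 8.92 and 10.6 FPKM in IL-10- replicates. It was 1.70-fold apart, with differences of 0.59 to 0.85 in the 4 numbers (adjusted p = 0.122, blocked adjusted p = 0.000165). Trib3, the pseudokinase that restrains ATF4 activity, stood at 62.3, 61.4, 12.8 and 13.8 FPKM in IL-10+ and at 66.9, 63.9, 13.0 and 12.6 FPKM in IL-10- replicates. Its number means spanned 4.72-fold on the scale of FPKM + 1, whereas its log2 change between the groups was -0.01 (blocked 95% interval -0.12 to 0.09). Vldlr, a lipoprotein receptor that ATF4 can induce, had the same shape at 0.701 ± 0.636 and 0.651 ± 0.623 FPKM (SD, n = 4), with differences of -0.01 to 0.09 and a blocked adjusted p of 0.633.

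All 3 enzymes of serine synthesis were higher in IL-10+ cells in every number and in the blocked fit, against 24.3% and 20.4% of all tested genes. Without the block 0 of the 3 were called, against 10.6% of all tested genes called higher. Phgdh, which takes 3-phosphoglycerate from glycolysis into the pathway, stood at 228, 257, 217 and 213 FPKM in IL-10+ and at 178, 216, 169 and 166 FPKM in IL-10- replicates. The IL-10- library of number 2 reached into the IL-10+ range, and the others stayed below it. Phgdh was 1.25-fold apart (log2 change 0.33, adjusted p = 0.0533, blocked adjusted p = 0.000530). It passed without the block when IL-10- replicate 2 (adjusted p = 0.0153) or both libraries of number 2 (0.0317) were left out, with median-of-ratios scaling (0.0349), when FPKM was rescaled leaving out immunoglobulin and mitochondrial genes (0.0350), and with a filter of 5 FPKM (0.0498). Psat1, the aminotransferase that follows, stood at 174, 204, 151 and 148 FPKM in IL-10+ and at 144, 183, 112 and 113 FPKM in IL-10- replicates (adjusted p = 0.257, blocked adjusted p = 0.00415). Psph, which releases free serine, stood at 27.0, 29.9, 21.2 and 21.1 FPKM in IL-10+ and at 19.0, 27.1, 14.8 and 13.6 FPKM in IL-10- replicates (adjusted p = 0.197, blocked adjusted p = 0.00600). Psph shares exon positions with the antisense gene Cct6a, which was lower in the blocked fit (80.2 against 93.6 FPKM in the mean, adjusted p = 0.539, blocked adjusted p = 0.00432). Psph also passed without the block when IL-10- replicate 2 was left out (adjusted p = 0.0395).

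Enzymes that pass serine carbon through the folate cycle were called in both directions, and only in the blocked fit. There 2 of 6 were higher and 3 were lower, which for 6 genes is near the background of 20.4% and 33.3%. Without the block 0 of the 6 were called, against 19.7% of all tested genes. Aldh1l2, the mitochondrial enzyme that oxidises formyl-folate, stood at 7.91, 5.43, 2.87 and 2.78 FPKM in IL-10+ and at 4.82, 3.16, 0.900 and 0.778 FPKM in IL-10- replicates, 1.97-fold apart (blocked adjusted p = 0.00132). The antisense gene D10Wsu102e, with which it shares exon positions, was also higher (1.44 against 0.925 FPKM in the mean, log2 change 0.34, adjusted p = 0.0166, blocked adjusted p = 0.00577), and its part in the difference of Aldh1l2 was not tested. Shmt2, the mitochondrial serine hydroxymethyltransferase, stood at 319, 334, 241 and 233 FPKM in IL-10+ and at 314, 313, 217 and 211 FPKM in IL-10- replicates (blocked adjusted p = 0.0427). Its call ended when number 2, 3 or 4 was left out (blocked adjusted p up to 0.165). Mthfd2, the mitochondrial dehydrogenase of the same route, had means of 89.5 ± 13.8 and 91.0 ± 22.3 FPKM (SD, n = 4), with differences of -0.17 to 0.11 and a blocked 95% interval of -0.13 to 0.12.

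The 3 that were lower were the cytosolic enzymes Shmt1 and Mthfd1 and the mitochondrial formate-releasing enzyme Mthfd1l. Shmt1 stood at 16.9, 19.2, 32.6 and 35.8 FPKM in IL-10+ and at 20.4, 27.5, 39.4 and 41.7 FPKM in IL-10- replicates (blocked adjusted p = 0.00468). Mthfd1, the trifunctional cytosolic enzyme, stood at 30.3, 38.9, 54.5 and 59.0 FPKM in IL-10+ and at 36.7, 47.0, 61.6 and 67.0 FPKM in IL-10- replicates (blocked adjusted p = 0.00204). For both genes numbers 3 and 4 were the higher ones, the opposite of nearly all other members. Mthfd1l stood at 56.5, 59.9, 43.7 and 47.0 FPKM in IL-10+ and at 65.6, 71.5, 51.0 and 51.6 FPKM in IL-10- replicates (blocked adjusted p = 0.00276), with numbers 1 and 2 above 3 and 4 as in the programme at large.

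In transsulfuration, which makes cysteine from homocysteine, 1 of the 2 enzymes was expressed above the filter. Cth, which performs the second step, stood at 48.3, 41.5, 10.3 and 9.86 FPKM in IL-10+ and at 37.4, 36.7, 4.82 and 5.38 FPKM in IL-10- replicates. Its 4 number means spanned 5.36-fold on the scale of FPKM + 1, more than those of any other member. The differences within the numbers were 0.36, 0.17, 0.96 and 0.77 (adjusted p = 0.679, blocked adjusted p = 0.0162), and the blocked call ended when number 4 was left out (blocked adjusted p = 0.0633). Cbs, which performs the first step, stayed between 0.164 and 0.331 FPKM in all 8 libraries, from 34 to 72 reads.

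Of the 6 other amino acid and carbon enzymes 5 were higher in the blocked fit, against 20.4% of all tested genes, and 0 were called without it. Asns, asparagine synthetase, stood at 129, 151, 71.8 and 73.7 FPKM in IL-10+ and at 98.7, 121, 37.8 and 40.1 FPKM in IL-10- replicates, 1.43-fold apart (adjusted p = 0.362, blocked adjusted p = 0.00680). The differences of 0.39 and 0.32 in numbers 1 and 2 were below those of 0.91 and 0.86 in numbers 3 and 4. Pycr1 and Aldh18a1 act in proline synthesis. Pycr1 stood at 18.7, 16.8, 9.04 and 8.81 FPKM in IL-10+ and at 13.4, 11.7, 4.60 and 4.94 FPKM in IL-10- replicates (blocked adjusted p = 0.00128). Aldh18a1 stood at 114, 128, 89.8 and 87.2 FPKM in IL-10+ and at 98.2, 109, 64.4 and 62.9 FPKM in IL-10- replicates (blocked adjusted p = 0.00467). Both overlapped between the groups, with numbers 1 and 2 the higher ones.

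Gpt2, the mitochondrial alanine aminotransferase, stood at 20.7, 23.5, 8.83 and 8.64 FPKM in IL-10+ and at 16.0, 18.1, 5.72 and 5.04 FPKM in IL-10- replicates (blocked adjusted p = 0.00188). Pck2, the mitochondrial form of phosphoenolpyruvate carboxykinase, stood at 67.1, 65.4, 30.1 and 29.8 FPKM in IL-10+ and at 56.8, 56.5, 22.4 and 21.0 FPKM in IL-10- replicates (blocked adjusted p = 0.00416). Bcat1, the cytosolic branched-chain aminotransferase, had means of 16.7 ± 3.25 and 16.1 ± 4.54 FPKM (SD, n = 4) with differences of -0.07 to 0.24 and no call in any fit (blocked adjusted p = 0.414).

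Spread between the replicate numbers exceeded the difference between the groups in 32 of the 36 tested members, against 71.5% of all tested genes. The exceptions were Slc7a5, Slc7a7, Slc1a5 and Phgdh. The range of the 4 number means had a median of 0.87 on the log2 scale among the members and 0.30 among all tested genes. The highest number mean belonged to number 1 or 2 and the lowest to 3 or 4 in 33 of the 36 members, against 45.1% of all tested genes, and the 3 with the opposite order were Shmt1, Mthfd1 and Slc7a6. The labels do not say what the numbers stand for, and the source of this spread was not tested. Of the members with the promoter match, 11 were tested, and 1 was higher without the block and 5 in the blocked fit. Of those with a promoter entry and no match 20 were tested, with 0 and 14 higher and 4 lower in the blocked fit. The background was 10.6% higher without the block, and 20.4% higher and 33.3% lower with it. Cth, Aldh1l2, Slc7a5, Slc38a1 and Slc1a5 had no promoter entry, so the calls of Slc7a5 and Slc1a5 without the block stand outside this split. The median range between number means was 1.22 for members with a match and 0.67 for those with an entry and no match.

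**Figure D3:**
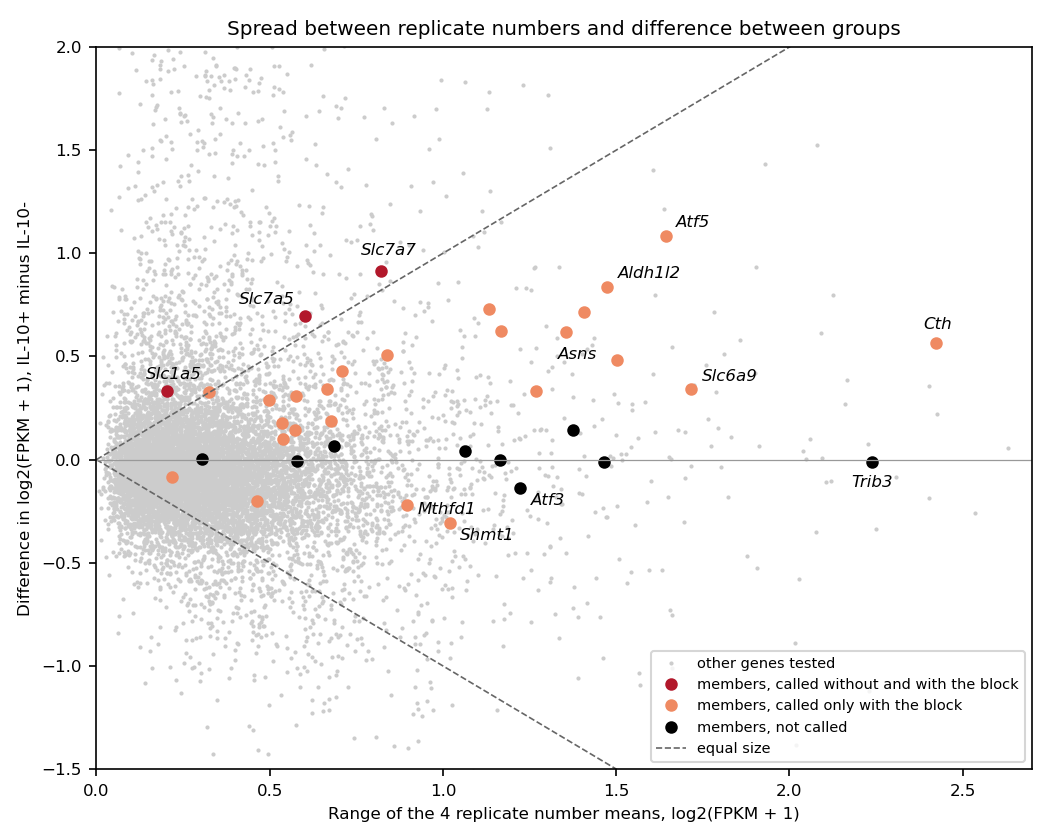
Range of the 4 replicate number means (x axis, log2 of FPKM + 1) against the difference between the groups (y axis, IL-10+ minus IL-10-) for the 36 tested members over all tested genes in grey. Dashed lines mark equal size, 119 genes lie outside the axes, and members between the dashed lines, such as Cth and Trib3, varied more between numbers than between groups.

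Upstream of ATF4, the kinases that phosphorylate eIF2 differed from each other. Eif2ak3, which encodes the endoplasmic reticulum stress kinase PERK, stood at 19.0, 19.0, 21.7 and 21.4 FPKM in IL-10+ and at 9.95, 9.27, 10.9 and 9.95 FPKM in IL-10- replicates. It rose 2.03-fold without overlap (log2 change 0.95, SE 0.0733, adjusted p = 5.61e-05). Eif2ak4, which encodes GCN2, the sensor of uncharged transfer RNA, stood at 5.80, 6.56, 6.66 and 6.82 FPKM in IL-10+ and at 7.63, 7.51, 7.97 and 7.98 FPKM in IL-10- replicates, and fell (log2 change -0.24, adjusted p = 0.0313). That call ended under both other scalings and in 7 of 8 fits with a single library left out, all but that of IL-10+ replicate 4 (adjusted p up to 0.0796). Impact, an inhibitor of GCN2, rose 1.80-fold (10.7 ± 1.75 against 5.95 ± 0.471 FPKM, SD, n = 4, adjusted p = 0.00185). Dnajc3, which encodes the PERK and PKR inhibitor p58IPK and is also a chaperone cofactor, rose from 23.2 ± 4.08 to 46.4 ± 6.76 FPKM (adjusted p = 0.00187).

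Eif2ak1 and Eif2ak2, the heme-regulated kinase HRI and the RNA-activated kinase PKR, were not called without the block (adjusted p = 0.464 and 0.0947), and Eif2ak2 was lower in the blocked fit (adjusted p = 0.00330). Ppp1r15a, which encodes GADD34, the stress-induced subunit that reverses eIF2 phosphorylation, stood at 91.1, 100.2, 45.1 and 33.9 FPKM in IL-10+ and at 90.9, 94.5, 41.6 and 26.1 FPKM in IL-10- replicates. Like Trib3, it separated numbers 1 and 2 from 3 and 4 and was called in neither fit (blocked adjusted p = 0.104). Its constitutive relative Ppp1r15b had means of 45.5 ± 1.36 and 41.8 ± 2.50 FPKM. In the whole list of 19 kinases and regulators of the integrated stress response 3 rose and 1 fell, or 5 and 7 in the blocked fit, and the median log2 change was 0.01. These are 15.8% and 5.26%, against 10.6% and 9.18% of all tested genes. With the block they are 26.3% and 36.8%, near the background of 20.4% and 33.3%.

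**Figure D4:**
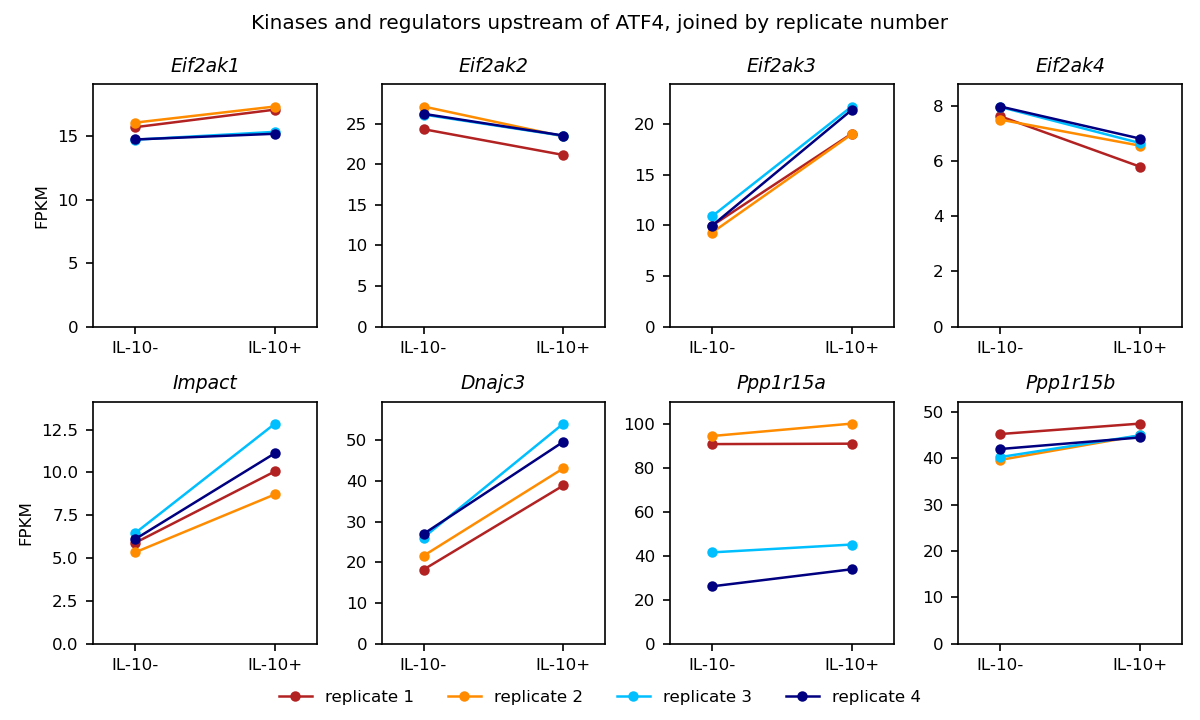
Level in FPKM of 8 kinases and regulators upstream of ATF4 in each library, with axes from 0 and lines joining the IL-10- and IL-10+ library of a replicate number. Eif2ak3, Impact and Dnajc3 rise in all 4 numbers and Eif2ak4 falls, while Ppp1r15a separates numbers 1 and 2 from 3 and 4.

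Other genes known as ATF4 targets that are no members came from a list of 23, of which 19 were tested. Of these 4 rose and 1 fell, or 12 and 3 in the blocked fit, with a median log2 change of 0.24. The shares were 21.1% and 5.26%, against 10.6% and 9.18% of all tested genes. With the block they were 63.2% and 15.8%, against 20.4% and 33.3%. Hmox1, the heme-degrading enzyme, rose from 4.65 ± 1.60 to 14.9 ± 1.89 FPKM (SD, n = 4, adjusted p = 0.000807). Herpud1, a factor of endoplasmic reticulum protein degradation, rose 2.04-fold, Sqstm1, the autophagy receptor p62, 2.07-fold and Ero1l, an oxidase of disulfide formation, 1.47-fold. Several of the 4 are also targets of other stress factors. Fbxo31, a ubiquitin ligase subunit, fell by 0.24 on the log2 scale (adjusted p = 0.0372), a call that ended under both other scalings, without a filter on low values and in 6 of 8 fits with a single library left out (adjusted p up to 0.0962; it held without IL-10+ replicate 1 or IL-10- replicate 2). The call of Ero1l ended in 5 of these 8 (IL-10+ replicate 1 or 2, or IL-10- replicate 2, 3 or 4, adjusted p up to 0.0976). In the fits with 1 number left out, 2 to 4 genes of this list were higher and 0 were lower.

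Genes of the same pathways outside the members were read against the background of 19.7% called in either direction, or 53.7% in the blocked fit. By direction this background is 10.6% higher and 9.18% lower, or 20.4% and 33.3% in the blocked fit. Of 17 tested genes of the serine, folate and methyl cycle 0 rose and 1 (5.88%) fell, with a median log2 change of -0.14. In the blocked fit 1 (5.88%) rose and 9 (52.9%) fell. The gene that fell was Tyms, thymidylate synthase, from 17.9 ± 1.66 to 13.9 ± 0.323 FPKM (adjusted p = 0.0109). Its call ended when both libraries of number 2 were left out. The 2 most abundant genes of that list, neither of which passed without the block, were Ahcy (99.3 ± 9.82 against 110.9 ± 13.0 FPKM) and Gart (53.4 ± 15.7 against 66.7 ± 17.4 FPKM), which act in the methyl cycle and in purine synthesis.

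Of 13 further amino acid transporters tested 3 (23.1%) rose and 2 (15.4%) fell, with a median log2 change of 0.08. In the blocked fit 4 (30.8%) rose and 3 (23.1%) fell, which for 13 genes is near the background of 20.4% and 33.3%. Slc38a10 rose from 14.1 ± 0.635 to 22.0 ± 0.634 FPKM (adjusted p = 0.000144), the leucine transporter gene Slc43a1 1.68-fold and the lysosomal transporter gene Slc36a4 1.59-fold. Slc6a6, the taurine transporter, fell from 25.4 ± 1.72 to 19.1 ± 1.25 FPKM (adjusted p = 0.00593), and Slc15a4, a lysosomal histidine and peptide transporter, was 1.49-fold lower (adjusted p = 0.0297). With IL-10+ replicate 2 left out Slc36a4 no longer passed (adjusted p = 0.0529). The call of Slc15a4 ended in 6 of 8 fits with a single library left out, all but those of IL-10+ replicate 1 and IL-10- replicate 4 (adjusted p up to 0.0815). Without both libraries of number 3, 0 of the 13 were lower, so the calls of Slc6a6 and Slc15a4 both ended. In the fits with 1 number left out, 1 to 3 of the 13 were higher.

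Among 17 other amino acid enzymes tested 2 rose and 2 fell (11.8% each, near the background), with a median of 0.01. In the blocked fit 8 (47.1%) rose and 3 (17.6%) fell. Bcat2, the mitochondrial counterpart of Bcat1, rose from 10.6 ± 0.952 to 14.8 ± 0.574 FPKM (adjusted p = 0.00306) and Got1, the cytosolic aspartate aminotransferase, 1.29-fold. Bckdhb, a subunit of branched-chain ketoacid dehydrogenase, fell from 7.19 ± 0.172 to 5.34 ± 0.386 FPKM (adjusted p = 0.00327). Glul, glutamine synthetase, was 1.24-fold lower, a call that ended without IL-10+ replicate 3 or 4 or IL-10- replicate 2 (adjusted p up to 0.0664). In the fits with 1 number left out, 1 to 3 of these 17 enzymes were higher and 1 to 2 lower. Of the 21 cytosolic aminoacyl-tRNA synthetases, which load transfer RNA with amino acids and include ATF4 targets, 2 (9.52%) rose and 0 fell, with a median of 0.09. In the blocked fit 7 (33.3%) rose and 2 (9.52%) fell. The 2 were Yars, the tyrosine enzyme (63.6 ± 4.52 against 45.9 ± 4.80 FPKM, adjusted p = 0.00726), and Mars, the methionine enzyme (adjusted p = 0.0487). The call of Mars held in 1 of 8 fits with a single library left out, that of IL-10+ replicate 1 (adjusted p up to 0.132). Without both libraries of number 3, 0 of the 21 were higher, so the calls of Yars and Mars both ended.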

How the data were processed

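The authors' deposited table gives FPKM per gene and library. The submitters' processing notes name HISAT2 2.1.0, HTSeq 0.6.0 and build mm10. Annotation release, strand setting and the handling of shared reads were not stated. Exons of 13 members share positions with another gene in GENCODE M21 (GRCm38), nearly always an antisense one, and whether reads of the pair were told apart is not known. Of the identifiers 26550 were found in that release and 39 were not. Between 93.5% and 93.6% of values, multiplied by exon length and a library total, came within 0.05 of whole reads, and read numbers were recovered this way. Libraries of a group were no near-copies (chi-square per degree of freedom 9.05 to 83.5).

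Libraries were grouped by title. limma 3.58.1 in R 4.3.3 was run on log2(FPKM + 1) with a variance trend and Benjamini-Hochberg adjustment over all genes past the filter, after being tested on simulated data. The simulated libraries held no effect of the replicate number, so the blocked fit was not tested in the setting of these data. Deviations from the group means of same-numbered libraries had correlations of 0.71, 0.58, 0.62 and 0.70, each the best match of both, so same-numbered libraries were treated as pairs. The labels state no such link, and it rests on these correlations. Blocked values are printed beside the results they change. Members and lists were chosen with earlier results of these data known. By the rule for named genes, members called in either fit and Atf4 are given in every library, other tested members by group means, members under the filter by their range, and of each pathway list up to 5 called genes, or the most abundant where fewer than 2 passed. Library values of Atf3, Trib3, Slc7a11 and Ppp1r15a, and values of other uncalled kinases and regulators, go beyond that rule and were added after their values were seen. Alternatives changed the pseudocount, filter, scaling, variance trend, block and the libraries used.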

Additional observations from a re-analysis of the deposited data

How the results depend on the processing

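None of the 27 members called in either fit changed direction in the alternatives run. Each of the 9 tested members called in no fit did so in at least 1, with log2 changes of -0.42 to 0.13 for Atf3, -0.40 to 0.38 for Trib3, -0.26 to 0.25 for Jdp2, -0.10 to 0.40 for Nupr1, -0.15 to 0.24 for Vldlr, -0.10 to 0.14 for Mthfd2, -0.05 to 0.22 for Bcat1, -0.24 to 0.24 for Slc1a4 and -0.06 to 0.06 for Slc38a1, so no direction is given for them. The alternatives include fits without the block that left out 1 library, in which the 2 groups do not hold the same replicate numbers. The changes of sign therefore do not measure the differences within the numbers. With the replicate block, 23 members were higher and 4 lower, beside 2312 and 3771 of all tested genes. The block with median-of-ratios scaling gave 23 and 3 members and 2616 and 3009 genes, and the block with FPKM rescaled leaving out immunoglobulin and mitochondrial genes gave 23 and 3 members and 2550 and 3116 genes. In the same order of these 3 blocked fits, 5, 6 and 6 stress response kinases and regulators were higher and 7, 6 and 6 lower. Of other ATF4 targets 12, 12 and 12 were higher and 3, 2 and 2 lower, and of the serine, folate and methyl cycle 1, 2 and 2 were higher and 9, 8 and 8 lower. Other amino acid enzymes had 8, 8 and 8 higher, other transporters 4, 5 and 5, and synthetases 7, 13 and 13, with 2, 0 and 0 synthetases lower.

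Without the block, both other scalings gave 0 lower among the stress response regulators and among other ATF4 targets, and no filter on low values gave 0 lower among the latter. Other transporters had 5 higher and 1 lower without a filter and 1 higher with 5 FPKM, and synthetases had 1 higher with 5 FPKM or without the variance trend. The cause was not tested.

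With 1 library or 1 number left out, with or without the block, 807 to 2045 genes were higher and 392 to 3166 lower, and 0 to 22 members were higher and 0 to 3 lower. In the blocked fits without number 1, 2, 3 or 4, 2045, 1973, 1974 and 1968 genes were higher and 3166, 3068, 2967 and 2972 lower, with 22, 21, 20 and 19 members higher and 3 lower in each. Without the block and 1 library left out, 607 to 954 genes were lower. Over all such fits the higher and lower counts were 3 to 4 and 0 to 7 for stress response regulators, 2 to 11 and 0 to 3 for other targets, 0 to 2 and 0 to 10 for the serine, folate and methyl cycle, 1 to 5 and 0 to 3 for other transporters, 1 to 7 and 1 to 3 for other enzymes, and 0 to 10 and 0 to 0 for synthetases. Low levels limit Slc7a11, Cbs, Nupr1 and Vldlr, the last 2 with as few as 12 and 14 reads in a library.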

Other observations

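Differences between the groups, taken with their sign as IL-10+ minus IL-10-, were ordered by replicate number in many members. In 20 of the 36 tested members both differences of numbers 3 and 4 were above both of numbers 1 and 2, against 17.8% of all tested genes, and in 1 member, Atf3, the order was the reverse. A higher signed value is not always a larger difference. Mthfd1, which is among the 20, had differences of -0.27, -0.26, -0.17 and -0.18 in numbers 1 to 4. Trib3, Mthfd2, Slc1a4 and Bcat1, also among them, had differences of both signs. The 20 included all 6 of the other amino acid and carbon enzymes and 3 of the 10 tested transporters. Numbers 3 and 4 are those in which most of these genes were low. This order was noticed in the data and was not tested.

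Among related genes outside the members, Vegfa, a growth factor gene that ATF4 can induce, and Slc7a3, a cationic amino acid transporter, had the shape of Atf5. They were singled out after their values were seen. Vegfa stood at 68.6, 70.8, 19.1 and 24.6 FPKM in IL-10+ and at 28.5, 27.0, 6.06 and 7.32 FPKM in IL-10- replicates (limma adjusted p = 0.145, 9.40e-05 in the blocked fit). Slc7a3 stood at 45.6, 47.3, 22.1 and 20.7 FPKM against 30.1, 34.4, 12.0 and 12.0 FPKM (adjusted p = 0.332, 0.000739 in the blocked fit).

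In none of the 76 sets of 4 values that the 38 members give in the 2 groups did 1 library stand apart from the other three by Dixon's test, where chance gives about 1 in 20. That chance holds for values without groups among them. Here the highest number mean belonged to number 1 or 2 and the lowest to 3 or 4 in 33 of the 36 tested members. A set in which numbers 1 and 2 lie apart from 3 and 4 can hardly show 1 library apart. How many sets split in this way was not counted, so nothing is concluded from the result of Dixon's test.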
